A study of Rattus norvegicus with 17 samples.

Results

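Cell cycle genes were followed across the dose groups of a study of the fetal rat testis after exposure in utero to dipentyl phthalate (DPeP), a phthalate ester used as a plasticizer. The set is a fixed list of 36 gene symbols, matched by name in the deposited count table, and 35 of them matched 1 gene identifier each among 30560 genes. E2f1 was not matched by name and is not analysed here. All 35 matched genes were tested, so no member was lost to the filter on low counts. They fall into 12 genes of DNA replication and the G1/S transition, 20 genes of mitosis and G2/M, and the 3 D-type cyclins.

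Pregnant Sprague Dawley dams were gavaged with corn oil alone or with DPeP in corn oil, 2.5 mL/kg on each day from gestational day 17 to 21. Testes were collected on gestational day 21, and polyA RNA of a single testis, or of a pair pooled within a litter, was sequenced. There were 3 libraries of corn oil alone, 3 of 1 mg/kg/d, 3 of 11 mg/kg/d, 3 of 100 mg/kg/d and 5 of 300 mg/kg/d, and the dams of every group, the controls included, received the oil. It is not stated whether each library came from its own dam, so p-values measure only the spread between these 17 libraries, part of which may be technical. The tissue is whole testis, in which fewer dividing cells and less of a transcript per cell cannot be told apart.

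Cells commit to division when D-type cyclins, with their kinases, inactivate the retinoblastoma proteins and release E2F factors, which turn on cyclin E and the genes of DNA synthesis. MCM proteins are loaded at replication origins as the replicative helicase, and a second wave of genes, turned on in G2 by B-MYB and FOXM1 complexes, builds the spindle, the kinetochores and the machinery that divides the cell. In the rat testis late in gestation, Sertoli cells divide, gonocytes rest in mitotic arrest and fetal Leydig cells divide little.

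The 2 waves have known promoter elements, and 250 bases before the start of 26 of the 35 genes could be read from RefSeq promoters of the build GRCr8. Rrm2, Ccnd1, Ccna2, Ccne2, Foxm1, Mcm4, Ccnd2, Tpx2 and Aurkb had no entry. Short motifs of 3 kinds were searched on both strands. The first was TTTGAA, the cell cycle genes homology region (CHR) bound by the DREAM and B-MYB complexes, and the next was CCAAT, bound by NF-Y. The last kind was the E2F site in any of the forms TTCCCGC (the usual one), TTGGCGC (with a G pair inside), TTGCCGC (with a C pair inside) or else TTCGCGC. The form TTGGCGC can overlap the complement of CCAAT by shared letters. The promoters below belong to members that fell with dose in the slope test described further on. Of these, the calls of Birc5, Cenpa and Cdc20 held in 17, 16 and 9 of the 26 alternative fits run for that test. Mcm5 is shown as a replication gene with E2F forms, and Cdc20, Birc5 and Cenpa as mitotic genes that hold both CHR and CCAAT. Motifs are in capitals, and each sequence ends at the base before the start. Mcm5 is at chr19:13488563-13488812 (plus strand), Cdc20 at chr5:137255800-137256049 (minus strand), Birc5 at chr10:103571896-103572145 (plus strand) and Cenpa at chr6:31431553-31431802 (minus strand).
Mcm5: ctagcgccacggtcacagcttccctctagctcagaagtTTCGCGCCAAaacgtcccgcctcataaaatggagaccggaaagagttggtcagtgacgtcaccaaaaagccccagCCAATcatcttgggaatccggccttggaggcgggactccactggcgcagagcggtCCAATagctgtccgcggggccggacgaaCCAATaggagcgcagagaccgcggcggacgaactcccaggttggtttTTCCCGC
Cdc20: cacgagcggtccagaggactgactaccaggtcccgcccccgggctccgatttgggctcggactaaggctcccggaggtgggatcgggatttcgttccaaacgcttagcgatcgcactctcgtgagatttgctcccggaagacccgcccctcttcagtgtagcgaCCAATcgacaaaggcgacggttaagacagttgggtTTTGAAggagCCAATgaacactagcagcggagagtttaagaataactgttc
Birc5: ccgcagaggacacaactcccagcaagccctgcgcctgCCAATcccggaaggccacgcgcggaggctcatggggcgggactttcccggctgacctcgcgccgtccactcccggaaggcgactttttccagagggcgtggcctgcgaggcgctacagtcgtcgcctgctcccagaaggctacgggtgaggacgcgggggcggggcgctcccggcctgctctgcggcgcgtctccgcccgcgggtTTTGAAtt
Cenpa: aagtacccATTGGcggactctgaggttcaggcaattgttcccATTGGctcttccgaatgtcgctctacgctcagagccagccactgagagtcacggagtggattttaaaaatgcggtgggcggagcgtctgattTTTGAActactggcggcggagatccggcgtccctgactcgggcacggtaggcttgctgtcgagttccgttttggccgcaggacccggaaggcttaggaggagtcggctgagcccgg

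In Mcm5, 2 overlapping E2F matches began 212 and 209 bases before the start and another began 7 bases before it, with CCAAT matches at 137, 82 and 54. In Cdc20 the CHR began 51 bases before the start, between CCAAT matches at 86 and 41. In Birc5 the CHR began 8 bases before the start with a CCAAT at 213, and in Cenpa the CHR began at 116 with CCAAT matches at 242 and 208. Of the 16 mitosis and G2/M genes with a promoter, 7 (43.8%) held the CHR and 13 (81.3%) held CCAAT, and each of the 7 with the CHR also held CCAAT. Of the 9 replication and G1/S genes with a promoter, 6 (66.7%) held an E2F form, 6 (66.7%) held CCAAT and 1 (11.1%) held the CHR. Over all 33469 promoters in the table, 16.2% held the CHR, 34.0% held CCAAT, 7.59% held an E2F form and 5.87% held CHR and CCAAT together. Aurka and Bub1b, which also fell with dose, held none of these letters in the window, and Plk1 and Kif20a, which fell too, held CCAAT alone. Ccnb2, Cdk1, Mki67 and Top2a held both CHR and CCAAT, and their slopes over dose were not called. A match is a description of letters and was not tested as a binding site.

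The libraries held 14282274 to 20323488 gene counts. Levels are given as CPM (counts scaled to a common library total, with TMM factors), and levels are compared between genes only per length, as TPM (counts over gene length, scaled likewise) computed from the deposited counts and gene lengths. At 100 mg/kg/d, replicates 05 and 18 differed from the rest: genes of the mitochondrial chromosome took 9.05% and 7.76% of their counts, against 5.26% in replicate 19 of the same dose and 4.35% to 6.16% in all other libraries. Star, which carries cholesterol into the Leydig cell mitochondrion and served as a check of exposure, changed by a log2 fold of -2.09 at 300 mg/kg/d against corn oil (adjusted p 7.3e-07 by edgeR's quasi-likelihood test). Every adjusted p below is from that test, with Benjamini-Hochberg adjustment over all 18005 genes tested, and a gene was called at an adjusted p under 0.05.

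The cell cycle was well represented in the fetal testis. Averaged over the 17 libraries, the highest level per length was that of Pcna, the sliding clamp of DNA polymerase, at 423 TPM. Ccnd3 followed at 275 TPM, Cdk1, the mitotic kinase, at 206 TPM and Ccnd2 at 205 TPM. The lowest were Ccnd1 at 9.16 TPM and Foxm1, the factor of G2 gene expression, at 0.455 TPM. Libraries of the same dose differed least in Mcm3, Mcm2 and Mcm5, with a within-group SD of 0.066, 0.068 and 0.070 on the log2 CPM scale. They differed most in Foxm1 and Ccnd1, with 0.778 and 0.412, and a change in these 2 genes would have to be larger to be seen.

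**Figure D1:**
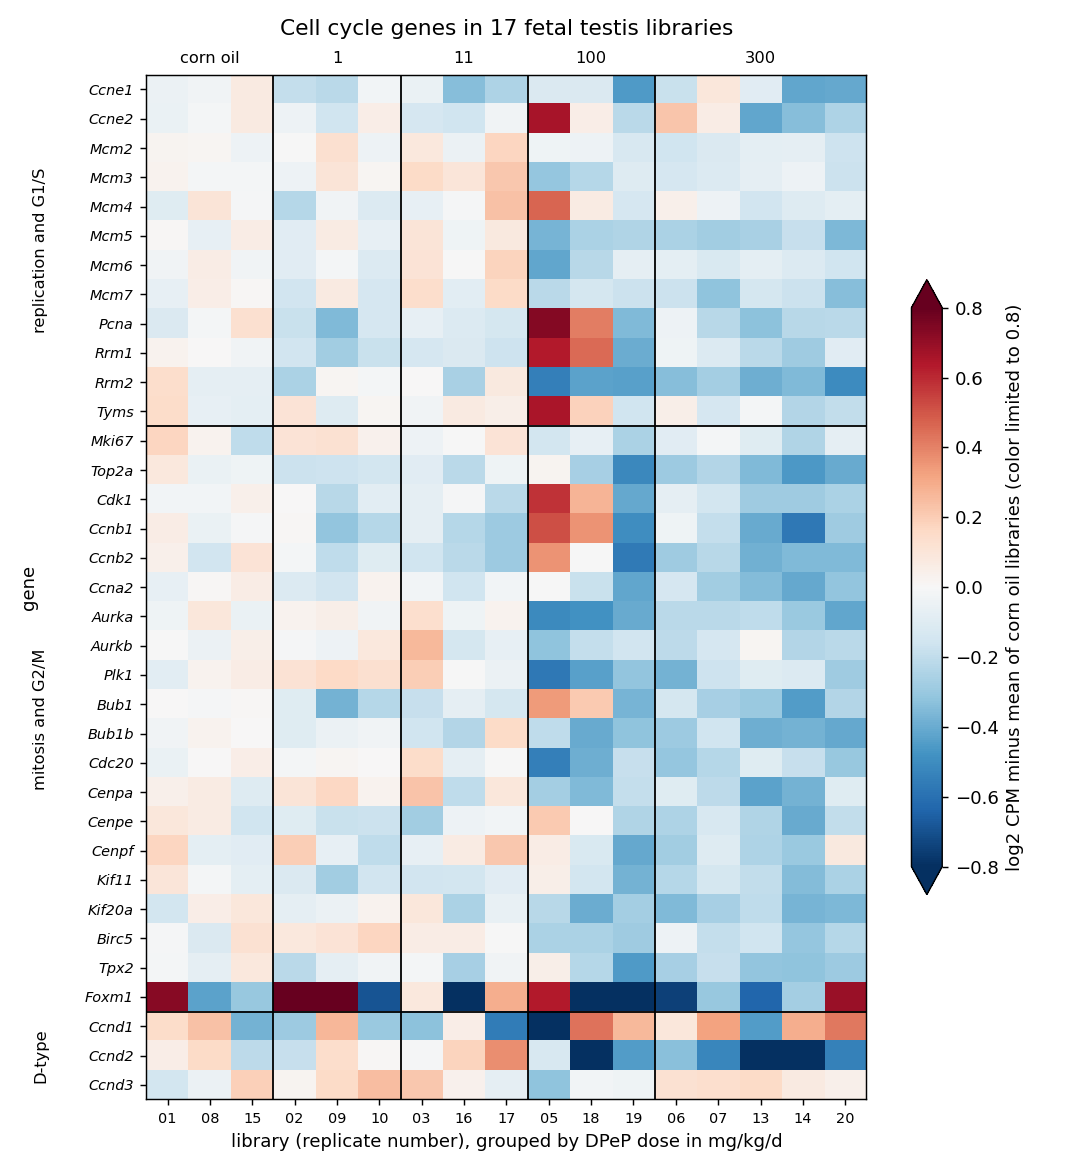
Levels of the 35 cell cycle genes in each of the 17 libraries, as log2 CPM minus the mean of the corn oil libraries (color limited to 0.8 in either direction). Columns are libraries grouped by dose from corn oil to 300 mg/kg/d, and rows are genes grouped by role. Blue runs through nearly all rows of the 5 libraries at 300 mg/kg/d and of replicate 19 at 100 mg/kg/d, while replicates 05 and 18 mix blue and red rows.

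At 300 mg/kg/d the cell cycle genes were slightly lower than in corn oil testes, nearly all of them together. The estimated fold change was below 0 for 33 of 35 genes, against 48.0% of all genes tested, and the median was -0.22 on the log2 scale (14.3% lower), against 0.01 over all genes. Mitosis and G2/M genes had a median of -0.26 with 20 of 20 below 0, and replication and G1/S genes a median of -0.13 with 12 of 12 below 0. The exceptions were Ccnd1 at 0.15 and Ccnd3 at 0.10. In 20 of the 35 genes all 5 libraries at 300 mg/kg/d lay below all 3 corn oil libraries, against 6.48% of all genes tested, and in 0 genes did they all lie above, against 5.82%. The test called 2 of 35 genes, Ccnd2 and Rrm2, both lower, where 2.40% of all genes tested were called, 1.41% lower and 0.994% higher. The median standard error of a member's fold change was 0.10 on the log2 scale.

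Among the D-type cyclins, which start the cycle, Ccnd2 is the one that, in the mouse, is needed for a testis of full size. It lies at chr4:159962363-159989495 (minus strand, mRatBN7.2, ENSRNOG00000062959). Ccnd2 had 627, 672 and 523 CPM in the corn oil libraries, 531, 666 and 608 CPM at 1 mg/kg/d, 599, 684 and 780 CPM at 11 mg/kg/d, 552, 305 and 443 CPM at 100 mg/kg/d, and 480, 420, 324, 347 and 415 CPM at 300 mg/kg/d. All 5 libraries at 300 mg/kg/d were below every corn oil library and every library at 1 and 11 mg/kg/d, whereas at 100 mg/kg/d replicate 05 lay within the range of the corn oil libraries. Ccnd2 averaged 397 ± 62.1 CPM at 300 mg/kg/d (SD, n = 5) and 607 ± 76.2 CPM in corn oil testes (SD, n = 3). The log2 fold change was -0.61 ± 0.16 (SE), with an adjusted p of 0.041 by edgeR. At 100 mg/kg/d the log2 fold change was -0.49 ± 0.18 and did not pass (adjusted p 0.15). Against the 6 libraries at 1 and 11 mg/kg/d, which share no library with the corn oil group, Ccnd2 at 300 mg/kg/d was lower by a log2 fold of -0.70 ± 0.13 (adjusted p 0.0044 by edgeR), and it stayed called in all 19 alternatives run for that comparison.

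The other D-type cyclins were not called in any comparison. Ccnd3 averaged 248 ± 7.96 CPM at 300 mg/kg/d (SD, n = 5) and 231 ± 28.1 CPM in corn oil testes (SD, n = 3), with an adjusted p of 0.74 by edgeR. Ccnd1 averaged 9.45 ± 2.04 CPM at 300 mg/kg/d and 8.55 ± 1.84 CPM in corn oil testes (SD, n = 5 and 3), with an adjusted p of 0.88 by edgeR. The difference between Ccnd2 and these 2 genes was not tested.

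Rrm2, the small subunit of ribonucleotide reductase, makes deoxynucleotides for S phase with the large subunit Rrm1, and lies at chr6:41340557-41346773 (plus strand, mRatBN7.2, ENSRNOG00000054286). Rrm2 had 59.9, 51.7 and 51.7 CPM in the corn oil libraries, 45.6, 54.9 and 53.7 CPM at 1 mg/kg/d, 54.4, 45.3 and 57.3 CPM at 11 mg/kg/d, 37.1, 40.4 and 40.2 CPM at 100 mg/kg/d, and 42.8, 45.0, 41.4, 42.5 and 38.3 CPM at 300 mg/kg/d. All 8 libraries of the 2 high doses lay below all 9 of the others. The log2 fold change against corn oil was -0.37 ± 0.10 at 300 mg/kg/d (SE, adjusted p 0.048 by edgeR) and -0.47 ± 0.11 at 100 mg/kg/d (adjusted p 0.036). Rrm1 differed in pattern at 100 mg/kg/d. It had 256, 253 and 246 CPM in corn oil libraries, 391, 345 and 191 CPM at 100 mg/kg/d, and 246, 234, 216, 206 and 236 CPM at 300 mg/kg/d. Its highest library at 300 mg/kg/d (246.13 CPM) lay just below the lowest of corn oil (246.21 CPM), so these groups did not overlap. At 100 mg/kg/d, 2 libraries were thus above every corn oil library in Rrm1 and the other below, and no comparison called it.

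Of the 6 subunits of the MCM helicase, Mcm5 had the lowest fold change at 300 mg/kg/d. It had 162, 154 and 168 CPM in the corn oil libraries, 151, 169 and 154 CPM at 1 mg/kg/d, 173, 157 and 170 CPM at 11 mg/kg/d, 125, 135 and 136 CPM at 100 mg/kg/d, and 135, 133, 135, 142 and 126 CPM at 300 mg/kg/d. As in Rrm2, the libraries of the 2 high doses did not overlap the other 9. The log2 fold change at 300 mg/kg/d was -0.27 ± 0.08 against corn oil, which did not pass (adjusted p 0.073 by edgeR), and -0.28 ± 0.06 against 1 and 11 mg/kg/d, which did (adjusted p 0.018). Mcm2, Mcm3, Mcm6 and Mcm7 also had all 5 libraries at 300 mg/kg/d below every corn oil library, with log2 fold changes of -0.12, -0.10, -0.11 and -0.23, and none was called. For Mcm4 the log2 fold change was -0.07 ± 0.11, and its libraries overlapped.

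Pcna had 267, 235, 218, 235 and 236 CPM at 300 mg/kg/d and 253, 271 and 300 CPM in corn oil libraries, a log2 fold change of -0.21 ± 0.15 that did not pass (adjusted p 0.62 by edgeR). Tyms, thymidylate synthase, and the cyclin E genes Ccne1 and Ccne2, which open S phase with Cdk2, had log2 fold changes of -0.11, -0.19 and -0.12 at 300 mg/kg/d, none called and each with libraries that overlapped those of corn oil.

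**Figure D2:**
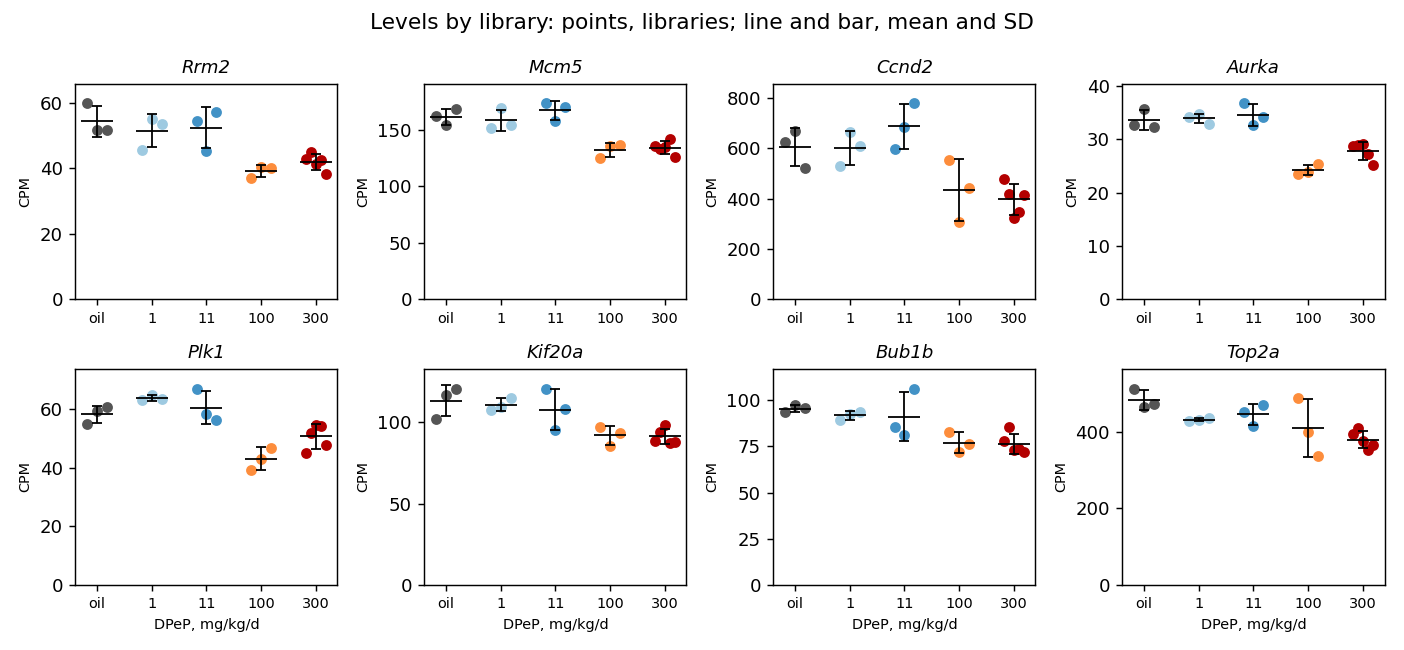
Levels of 8 cell cycle genes in each library, in CPM on axes that start at 0, by group from corn oil to 300 mg/kg/d. Points are libraries, and the line and bar are the mean and SD of the group. In Rrm2, Mcm5 and Aurka all points at 100 and 300 mg/kg/d lie below all points of the other groups, and in Ccnd2 all points at 300 mg/kg/d lie below those of corn oil, 1 and 11 mg/kg/d.

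Aurka and Plk1 are the kinases that mature centrosomes and drive entry into mitosis. In mRatBN7.2, Aurka lies at chr3:161128313-161144390 (minus strand, ENSRNOG00000004479) and Plk1 at chr1:176716420-176726400 (plus strand, ENSRNOG00000018815). Aurka had 32.8, 35.7 and 32.3 CPM in the corn oil libraries, 34.2, 34.7 and 32.9 CPM at 1 mg/kg/d, 36.8, 32.8 and 34.2 CPM at 11 mg/kg/d, 23.5, 24.0 and 25.4 CPM at 100 mg/kg/d, and 28.9, 29.0, 29.2, 27.3 and 25.2 CPM at 300 mg/kg/d. The libraries at 100 mg/kg/d were the lowest except that replicate 20 at 300 mg/kg/d lay among them. Aurka fell by 0.47 ± 0.10 on the log2 scale at 100 mg/kg/d against corn oil (SE, adjusted p 0.019 by edgeR). At 300 mg/kg/d its log2 fold change against corn oil was -0.27 ± 0.09 and did not pass (adjusted p 0.13), and against 1 and 11 mg/kg/d it was -0.30 ± 0.07 and passed (adjusted p 0.027). Plk1 had 55.1, 59.4 and 60.7 CPM in corn oil libraries, 39.3, 43.2 and 47.0 CPM at 100 mg/kg/d, and 45.0, 52.0, 54.7, 54.2 and 48.0 CPM at 300 mg/kg/d. It fell by 0.44 ± 0.10 on the log2 scale at 100 mg/kg/d (adjusted p 0.039 by edgeR), while the log2 fold change of -0.20 ± 0.09 at 300 mg/kg/d did not pass (adjusted p 0.34). Aurkb, the kinase of the chromosomal passenger complex, had -0.15 ± 0.10 at 300 mg/kg/d, and Birc5 (survivin), which anchors that complex, had -0.19 ± 0.09, neither called.

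The spindle checkpoint holds cells in metaphase until every kinetochore is attached. Bub1b, the checkpoint protein BUBR1, had 93.5, 97.3 and 95.8 CPM in corn oil libraries, 83.0, 72.1 and 76.3 CPM at 100 mg/kg/d, and 78.0, 85.6, 72.8, 73.5 and 72.0 CPM at 300 mg/kg/d. Neither high dose overlapped corn oil. Its log2 fold change of -0.32 ± 0.09 at 300 mg/kg/d did not pass in that comparison (adjusted p 0.073 by edgeR). Cdc20, which activates the anaphase-promoting complex, had 94.3, 98.1 and 102 CPM in corn oil libraries, 66.9, 74.6 and 86.3 CPM at 100 mg/kg/d, and 79.0, 83.7, 91.6, 86.4 and 79.5 CPM at 300 mg/kg/d. Bub1, a checkpoint kinase, had 132, 121, 119, 107 and 124 CPM at 300 mg/kg/d and 146, 145 and 147 CPM in corn oil libraries, with no overlap and no call (adjusted p 0.30 by edgeR).

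Kif20a, a kinesin of the midbody needed for the last step of division, had 102, 117 and 121 CPM in corn oil libraries, 96.9, 85.8 and 93.7 CPM at 100 mg/kg/d, and 88.7, 94.2, 98.3, 87.6 and 88.0 CPM at 300 mg/kg/d. Its libraries at both high doses lay below all corn oil libraries, with log2 fold changes of -0.31 ± 0.09 at 300 mg/kg/d and -0.30 ± 0.10 at 100 mg/kg/d, neither called (adjusted p 0.073 and 0.13 by edgeR). Top2a, the topoisomerase that untangles chromosomes, had 393, 411, 377, 351 and 365 CPM at 300 mg/kg/d and 512, 464 and 472 CPM in corn oil libraries, the lowest log2 fold change of the mitotic genes at -0.35 ± 0.10 (adjusted p 0.075). The spindle proteins Kif11 and Tpx2 had log2 fold changes of -0.23 and -0.28 without overlap, and the centromere proteins Cenpa, Cenpe and Cenpf had -0.24, -0.24 and -0.17 with overlap. Mki67, the marker of dividing cells, had the fold change nearest to 0 of the mitotic genes, at -0.11 ± 0.09 on the log2 scale. It had 304, 321, 302, 274 and 307 CPM at 300 mg/kg/d and 364, 331 and 282 CPM in corn oil libraries, and one control library lay below 4 of the 5 dosed ones. Foxm1 lay between 0.221 and 1.60 CPM in every library, with as few as 4 counts, too low to show a change at this depth.

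The cyclins of S phase and mitosis differed among themselves in their spread. Ccna2, cyclin A2, had 115, 104, 99.3, 94.8 and 102 CPM at 300 mg/kg/d and 120, 127 and 131 CPM in corn oil libraries, with no overlap and a log2 fold change of -0.29 ± 0.09 (adjusted p 0.11 by edgeR). Ccnb1, cyclin B1, the partner of Cdk1, had 126, 113, 97.4, 86.6 and 106 CPM at 300 mg/kg/d and 134, 124 and 128 CPM in corn oil libraries, and the groups overlapped by replicate 06. Cdk1 itself had 117, 111, 101, 101 and 103 CPM at 300 mg/kg/d and 121, 121 and 127 CPM in corn oil libraries, without overlap, at a log2 fold change of -0.21 ± 0.14 (adjusted p 0.59). Ccnb2 had a log2 fold change of -0.32 ± 0.13, also without overlap (adjusted p 0.28).

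The 2 calls at 300 mg/kg/d against corn oil, Ccnd2 and Rrm2, were both lost when the sample code of the labels, of which there are 3, was a term of the fit. The adjusted p reached 0.19 for Ccnd2 and 0.23 for Rrm2 over the 16 alternatives run. The Rrm2 call was lost without any 1 of the 8 libraries compared, and the Ccnd2 call without any 1 of them except replicate 06 at 300 mg/kg/d. More members, all lower, were called in 5 alternatives, in which more of all genes were called too. When only the libraries at 300 mg/kg/d and corn oil were fitted, 10 members and 4.82% of all genes tested were called. Without replicates 05 and 18 at 100 mg/kg/d, 11 members and 4.61% of all genes were called. The spread of these libraries otherwise enters the shared estimate of error, and its part in that count was not tested. By limma voom with sample weights 8 members and 4.82% of all genes were called, and by DESeq2 7 members and 4.31%. With the gene length trend removed it was 5 members and 2.89%. The median of the members lay between -0.24 and -0.21 in the 16 alternatives. Within the sample code that held 2 libraries at 300 mg/kg/d and 1 of corn oil, the median of the log2 ratios was -0.21 with 32 of 35 genes below 0. Within the code that held 3 and 1 it was -0.23 with 32 of 35, and the other code held no library at 300 mg/kg/d.

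**Figure D3:**
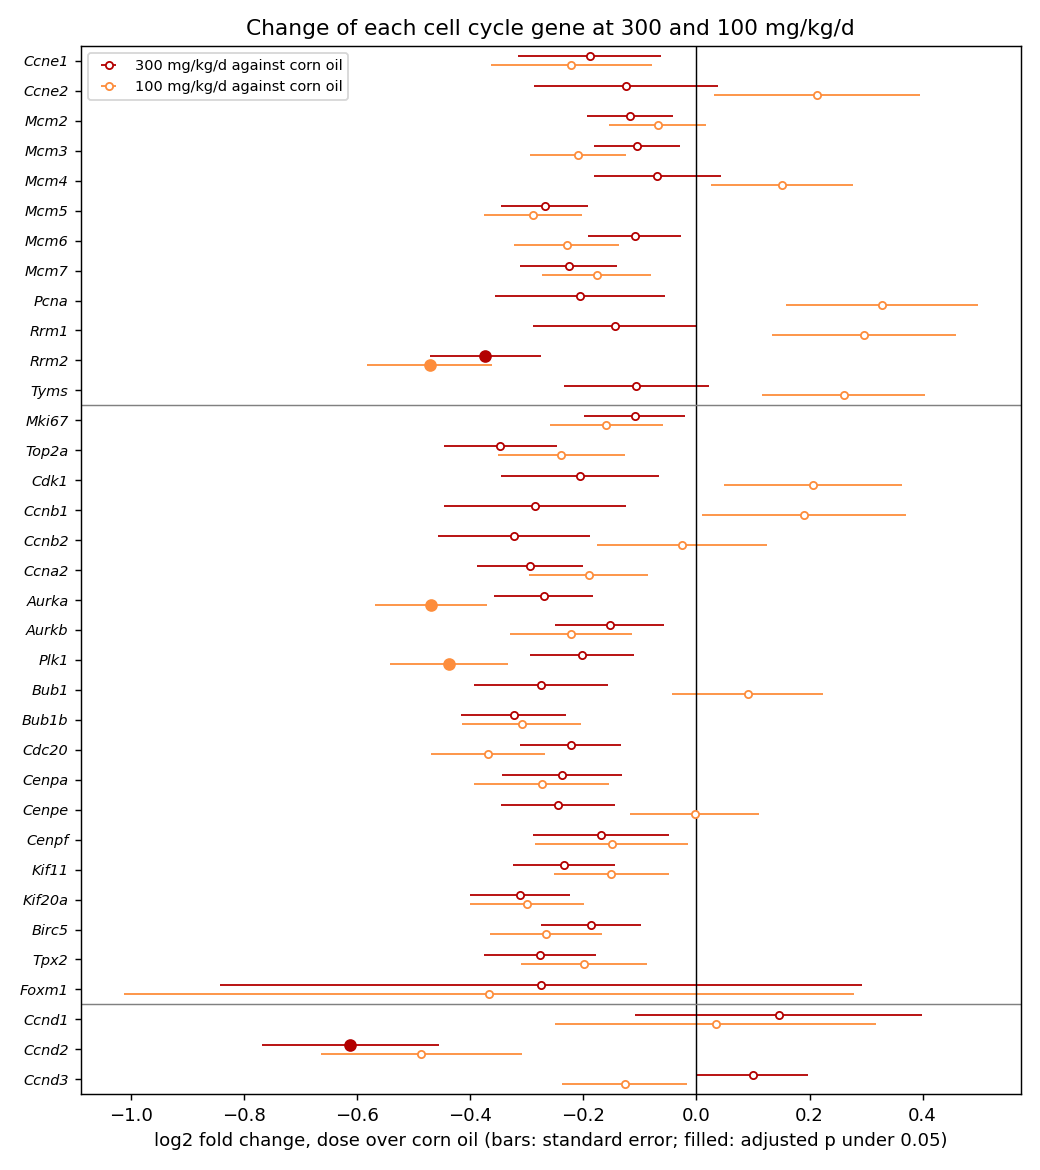
Log2 fold change of each of the 35 cell cycle genes at 300 mg/kg/d and at 100 mg/kg/d against corn oil, with its standard error. Rows are genes grouped by role, and filled points passed an adjusted p of 0.05. At 300 mg/kg/d only Ccnd1 and Ccnd3 lie right of 0, while at 100 mg/kg/d Pcna, Rrm1, Tyms, Ccne2, Cdk1, Ccnb1, Mcm4, Bub1 and Ccnd1 do.

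At 100 mg/kg/d the cell cycle genes did not all move in the same direction. Aurka, Plk1 and Rrm2 fell against corn oil (3 of 35 genes called, all lower, where 1.52% of all genes tested were called, 1.03% lower and 0.494% higher), and 26 of 35 fold changes were below 0, against 44.3% of all genes. The median was -0.19 on the log2 scale, against 0.05 over all genes, with -0.21 for mitosis and G2/M genes (17 of 20 below 0) and -0.12 for replication and G1/S genes (7 of 12 below 0). In 14 genes all 3 libraries lay below all corn oil libraries, against 7.89% of all genes tested, and in 0 did they all lie above, against 7.14%. No member was called higher.

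The 3 libraries at this dose did not have the same pattern. Replicate 19 lay below every corn oil library in 33 of 35 members, including all 32 replication and mitosis genes, where 28.9% of all genes tested did so. Replicate 05 lay below every corn oil library in 16 members and above every one in 10, where 35.2% and 37.6% of all genes tested did so. The 10 were Ccne2, Mcm4, Pcna, Rrm1, Tyms, Cdk1, Ccnb1, Ccnb2, Bub1 and Cenpe. Replicate 18 lay below every corn oil library in 22 members and above in 7, where 30.5% and 34.4% of all genes tested did so. It lay between replicates 05 and 19 in 25 members. In replicates 05 and 18, members above every corn oil library were thus no more frequent than such genes among all genes tested.

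Several S-phase genes and the mitotic kinase with its cyclin differed widely between these libraries. Pcna had 456, 363 and 215 CPM in replicates 05, 18 and 19 at 100 mg/kg/d, against 253, 271 and 300 CPM in corn oil libraries. Cdk1 had 184, 149 and 92.9 CPM at 100 mg/kg/d, against 121, 121 and 127 CPM in corn oil libraries, and Ccnb1 had 185, 165 and 91.4 CPM, against 134, 124 and 128 CPM. In each of these, and in Rrm1 above, replicates 05 and 18 lay over and replicate 19 under the corn oil libraries. Replicate 05 had 2.12 times the level of replicate 19 in Pcna, 2.05 times in Rrm1, 2.02 times in Ccnb1 and 1.98 times in Cdk1. It had 0.775 times the level of replicate 19 in Cdc20, 0.789 times in Mcm6 and 0.837 times in Plk1, so genes of the same phase lay on opposite sides. Foxm1 and Ccnd1, both at low levels, had ratios further from 1, at 3.29 and 0.464. For Aurka, Birc5, Mcm5 and Rrm2, in contrast, the 3 libraries lay close together and all below corn oil.

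Left out in turn, single libraries changed the count of calls at 100 mg/kg/d. Without replicate 19 the test called 15 members, 6 of them higher (Pcna, Rrm1, Tyms, Cdk1, Ccnb1 and Bub1), and 4250 genes in all, against 274 with it. Without replicate 18, and without each of the 3 corn oil libraries, 0 members were called, and without replicate 05 only Aurka was. Within the sample code that held replicates 05 and 19 and 1 corn oil library, the median of the log2 ratios was -0.19 with 24 of 35 members below 0, and within the code that held replicate 18 and 1 corn oil library it was -0.19 with 25 of 35. Fitted without the other groups, 0 members and 0.263% of all genes were called. When the fit had a term for the sample code, the Aurka call alone was left. Replicates 05 and 18 also had the highest mitochondrial shares (above) and the lowest summed CPM of 10 endothelial markers among all 17 libraries, 276 and 333, against 450 in replicate 19. The summed CPM of 9 peritubular myoid markers was 946, 1327 and 1651 in replicates 05, 18 and 19, and 1324 to 1484 in corn oil libraries. The summed CPM of 16 gonocyte markers was 1227, 1437 and 1095 in replicates 05, 18 and 19, and 827 to 999 in corn oil libraries. The part of these differences in the spread of the cell cycle genes at this dose was not tested.

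**Figure D4:**
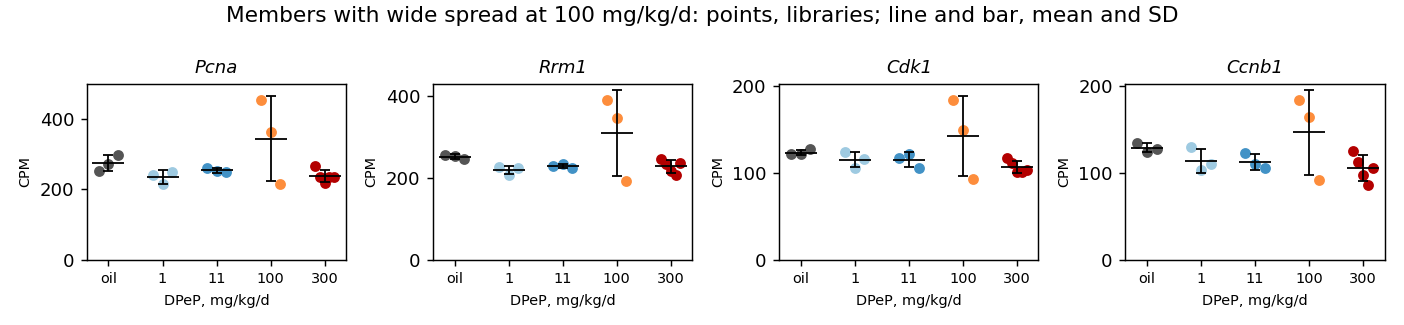
Levels of Pcna, Rrm1, Cdk1 and Ccnb1 in each library, in CPM on axes that start at 0, by group from corn oil to 300 mg/kg/d. Points are libraries, and the line and bar are the mean and SD of the group. At 100 mg/kg/d replicates 05 and 18 lie above all corn oil libraries and replicate 19 below them, and the libraries at 300 mg/kg/d lie together.

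Between the 2 high doses the edgeR test called no member. At 300 against 100 mg/kg/d the median log2 fold change of the members was -0.02, with 20 of 35 below 0, against 50.8% of all genes, and 0 of 35 were called, where 0.00555% of all genes tested were. At an unadjusted p under 0.05, 11 of 35 members differed, against 24.2% of all genes tested, while DESeq2 called 1 member (Pcna) and 1145 genes in all, and limma voom 10 members and 36.5% of all genes. The lowest log2 fold change was that of Pcna, at -0.53 ± 0.15 (adjusted p 0.090 by edgeR), and the highest that of Plk1, at 0.24 ± 0.09 (adjusted p 0.14). Without replicate 19 at 100 mg/kg/d, 13 members were called, and 5872 genes in all (32.1%). Only in Ccnd3 did the libraries not overlap, with 251, 253, 256, 242 and 237 CPM at 300 mg/kg/d and 184, 226 and 225 CPM at 100 mg/kg/d, where 3.37% of all genes lay higher and 2.60% lower without overlap.

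At 1 and 11 mg/kg/d no cell cycle gene was called. The edgeR test called 0 of 35 members and 0 of all genes tested (0%) at each dose, 0 members had an unadjusted p under 0.05, where 4.95% and 3.52% of all genes tested did at 1 and 11 mg/kg/d, and DESeq2 and limma voom called 0 members as well. The median log2 fold change was -0.06 at 1 mg/kg/d (23 of 35 below 0, against 49.0% of all genes) and -0.06 at 11 mg/kg/d (18 of 35 below 0, against 48.7%). At 1 mg/kg/d, 5 members lay below every corn oil library and 1, Plk1, above, against 7.65% and 6.47% of all genes. At 11 mg/kg/d, 6 lay below and 1, Mcm3, above, against 6.94% and 5.28%. For Ccnd2 at 11 mg/kg/d the log2 fold change against corn oil was 0.18 ± 0.18. The dose comparisons share the 3 corn oil libraries, so their values are not independent of each other.

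Read against the low doses in place of corn oil, 300 mg/kg/d was again lower in most members. Against the 6 libraries at 1 and 11 mg/kg/d, 32 of 35 fold changes were below 0, against 47.4% of all genes, with a median of -0.17 on the log2 scale. Mitosis and G2/M genes had 20 of 20 below 0 and replication and G1/S genes 11 of 12. The test called 5 members, all lower, where 3.47% of all genes tested were called, 1.68% lower and 1.78% higher. These were Ccnd2, Mcm5, Aurka, Plk1 (-0.29 ± 0.08, adjusted p 0.038 by edgeR) and Rrm2 (-0.30 ± 0.08, adjusted p 0.044). In 10 members the libraries at 300 mg/kg/d lay below all 6, against 2.43% of all genes, and in 0 above all 6, against 2.29%. Without replicate 09 at 1 mg/kg/d, replicate 07 or replicate 20 at 300 mg/kg/d, only the Ccnd2 call was left, and 14 members and 6.64% of all genes were called when these 11 libraries were fitted on their own. Over the 19 alternatives the Mcm5 call held in 16, the Aurka call in 10, and the Plk1 and Rrm2 calls in 8 each.

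A single slope over all 17 libraries, on log2(dose + 1), gave the largest number of calls. It was negative in 31 of 35 members, against 44.9% of all genes, and was called in 11 members, all falling with dose, where 5.72% of all genes tested were called, 2.98% falling and 2.74% rising. Among the called members the steepest was Ccnd2, at -0.084 ± 0.020 in log2 CPM for each unit of log2(dose + 1) (adjusted p 0.011 by edgeR), then Rrm2 at -0.051 ± 0.011 (adjusted p 0.0065). Mcm5 was the other replication gene called (-0.038, adjusted p 0.014). The mitotic genes called were Aurka (-0.046, adjusted p 0.017), Plk1 (-0.045, adjusted p 0.031), Bub1b (-0.041, adjusted p 0.010), Kif20a (-0.041, adjusted p 0.0078), Cenpa (-0.041, adjusted p 0.034), Birc5 (-0.037, adjusted p 0.028), Cdc20 (-0.037, adjusted p 0.039) and Ccna2 (-0.033, adjusted p 0.043). All 20 mitosis and G2/M genes had a negative slope, and 9 of 12 replication and G1/S genes did, Mcm4, Pcna and Rrm1 being the exceptions. The calls of Ccnd2, Mcm5, Bub1b and Kif20a held in all 26 alternatives run, the Rrm2 call in all except the slope on linear dose, and the Aurka call in all except that slope and the fit with the sample code. The calls of Plk1 and Birc5 held in 17, that of Cenpa in 16, and those of Ccna2 and Cdc20 in 9 of the 26, and leaving out replicate 02 at 1 mg/kg/d, among other single libraries, ended each of these 5 calls. The slope joins doses that gave calls against corn oil with doses that gave none, and 300 mg/kg/d had the lowest group mean in 17 members and 100 mg/kg/d in 14.

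Other genes of the same pathways were counted in 3 lists that hold no member. The 30 symbols of other replication genes matched 31 gene identifiers, each counted here as a gene. Of these 31, 0 were called at 300 mg/kg/d and 0 at 100 mg/kg/d against corn oil. Of all genes tested, 2.40% and 1.52% were called. The medians of the 31 were -0.17 (27 of 31 below 0) and 0.02 (15 of 31 below 0) on the log2 scale. Of 30 other mitosis genes, 0 were called at either dose, with medians of -0.22 (29 of 30 below 0) and 0.01 (15 of 30 below 0). At an unadjusted p under 0.05 there were 5 of 31 and 9 of 30 at 300 mg/kg/d, against 13.3% of all genes tested, and 8 of 31 and 5 of 30 at 100 mg/kg/d, against 19.2%. Falling slopes over dose were called for 1 of the 31 and 3 of the 30, against the 2.98% of all genes given above. They were those of Cdt1, which loads the MCM helicase, of Prc1 and Anln, which build the division plane, and of Ube2c, the ubiquitin carrier of the anaphase-promoting complex. Their slopes were -0.045, -0.036, -0.036 and -0.042 (adjusted p 0.022, 0.016, 0.032 and 0.025 by edgeR), and the calls held in 22, 25, 17 and 20 of the 26 alternatives.

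Among 24 cyclin-dependent kinases, kinase inhibitors, retinoblastoma proteins, E2F and MYB factors, Cdkn1c, the inhibitor p57, was called, lower, at both high doses. It was the only one of the 24 called at 300 or 100 mg/kg/d against corn oil, where 1.41% and 1.03% of all genes were called lower. It averaged 147 CPM at 300 mg/kg/d and 201 CPM in corn oil testes, a log2 fold change of -0.46 ± 0.11 (adjusted p 0.032 by edgeR), and 136 CPM at 100 mg/kg/d, a log2 fold change of -0.56 ± 0.13 (adjusted p 0.028). The call at 300 mg/kg/d held in 9 of 16 alternatives and was lost with the sample code in the fit, and the call at 100 mg/kg/d held in 10 of 14. Cdkn2c and Cdkn2d, inhibitors of the kinases of D-type cyclins, were lower at 300 mg/kg/d than at 1 and 11 mg/kg/d, at 16.2 against 21.8 CPM and 16.5 against 21.8 CPM (log2 fold changes of -0.43 ± 0.10 and -0.40 ± 0.09, adjusted p 0.023 and 0.017). They were not called against corn oil. Their slopes over dose were called, falling, as was that of Cdkn1c (3 of 24, against 2.98% of all genes). These calls held in 26, 26 and 25 of the 26 alternatives.

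Markers of some cell types also differed between the groups. For comparison, 1.41% of all genes tested were called lower and 0.994% higher at 300 mg/kg/d, and 48.0% had a fold change below 0. At 100 mg/kg/d, 1.03% were called lower and 0.494% higher, and 44.3% were below 0. All 10 Leydig cell markers were called lower at 300 mg/kg/d and 9 of 10 at 100 mg/kg/d, and their summed level was 5657 to 7049 CPM in corn oil libraries, 2648 to 3809 CPM at 100 mg/kg/d and 1462 to 2317 CPM at 300 mg/kg/d. Of 13 Sertoli cell markers, 5 were called higher (Sox8, Clu, Ptgds, Amh and Dhh) and 1 lower (Inha) at 300 mg/kg/d. The fold changes of 11 of the 13 were above 0 (median 0.35, log2). Their summed level was 3077 to 5279 CPM, against 2535 to 3315 CPM in corn oil libraries. Amh, with a mean of 1831 CPM over the 17 libraries, weighs most in that sum. At 100 mg/kg/d only Inha was called, lower, and 9 of 13 fold changes were above 0. Of 16 gonocyte markers 1, Nanos2, was called higher at 300 mg/kg/d and 1, Dazl, at 100 mg/kg/d. The fold changes of 14 of the 16 were above 0 at 300 mg/kg/d (median 0.22) and of 15 at 100 mg/kg/d (median 0.59), and their summed level was 871 to 1059 CPM at 300 mg/kg/d. The summed endothelial level was 408 to 456 CPM at 300 mg/kg/d and 516 to 522 CPM in corn oil libraries, with 9 of 10 markers below 0 and 0 called at 300 mg/kg/d. At 100 mg/kg/d 8 of 10 were below 0 and 1, Cdh5, was called lower. Of 11 macrophage markers 1, Tyrobp, was called lower at 300 mg/kg/d, with 9 of 11 below 0 and a summed level of 112 to 130 CPM, against 136 to 154 CPM in corn oil libraries. Of 9 peritubular myoid, 10 fibroblast and 9 red blood cell genes, 0 were called at either high dose. The myoid markers had 9 of 9 fold changes above 0 at 300 mg/kg/d (median 0.32) and 8 of 9 below 0 at 100 mg/kg/d (median -0.066), with a summed level of 1496 to 2022 CPM at 300 mg/kg/d. The fibroblast markers had 5 of 10 below 0 at 300 mg/kg/d and 7 of 10 at 100 mg/kg/d, with summed levels of 11174 to 13404 CPM at 300 mg/kg/d and 12338 to 13219 CPM in corn oil libraries. The red blood cell genes had 5 of 9 below 0 at 300 mg/kg/d and 1 of 9 at 100 mg/kg/d, with summed levels of 127 to 262 CPM at 300 mg/kg/d and 171 to 238 CPM in corn oil libraries. None of these markers was at 0 counts in any library. By the slope over dose, 9 of 10 Leydig cell markers were called falling, and 6 of 13 Sertoli cell markers rising and 1 falling. Of 16 gonocyte markers 6 were called rising, and the slopes of all 16 were above 0. In the endothelial, macrophage and fibroblast lists 1 gene each was called falling, and in the myoid and red blood cell lists 0 were called. Of all genes tested, 2.98% were called falling and 2.74% rising. Summed over members, mitosis and G2/M genes had 2083 to 2365 CPM at 300 mg/kg/d and 2607 to 2759 CPM in corn oil libraries, and replication and G1/S genes had 1790 to 1941 CPM at 300 mg/kg/d and 2037 to 2070 CPM in corn oil libraries. The part of the change in cell types in the cell cycle genes was not tested.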

How the data were processed

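Gene expression was measured by polyA RNA sequencing of 17 fetal testis libraries, made per the labels' protocols with the NEBNext Ultra II kit, which does not mark strand, so reads of overlapping genes cannot be told apart. Per the submitters' processing notes, reads were handled with Trimmomatic 0.36, STAR 2.5.2b, the build mRatBN7.2 and featureCounts of Subread 1.5.2. The deposited files hold the raw read count of each gene and, per the file headers, its exon length. The series table repeats rows (47125 rows for 30652 identifiers) and differed from the library files in 0 values. The 92 spike-in rows were left out, which left 30560 genes. A deposited TPM table and a deposited log2 table were not used here.

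Counts were fitted with edgeR 4.0.16 in R 4.3.3 (TMM, filterByExpr by dose group, quasi-likelihood F test), all 17 libraries in 1 fit of 18005 genes, for 7 comparisons. The tests were checked on simulated counts. Log2 CPM used a prior count of 2. TPM were computed from the counts and the exon lengths. Groups came from the treatment label. Alternatives were DESeq2 1.42.0, limma 3.58.1 voom with sample weights, RLE size factors in place of TMM, no low-count filter, compared groups only and a gene length trend removed. Others were sample code in the fit, dose rank, linear dose, no replicates 05 and 18 at 100 mg/kg/d, and each library left out. All members could be named. Of the other lists, up to 4 called genes with the smallest adjusted p in a comparison were named, with Star as a check of exposure. The members, lists and tests were chosen with earlier results of these data known.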

Additional observations from a re-analysis of the deposited data

Results flagged for a closer look

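Among the 35 cell cycle genes, the 5 libraries at 300 mg/kg/d were checked for a library far from the rest of its group. This flagged 1 value: Foxm1 had 1.35 CPM in replicate 20, the nearest of the other libraries had 0.634 CPM, and the gap took 0.773 of the range, above the 95% critical value of Dixon's test for 5 samples. Chance flags about 1 in 20 groups, and Foxm1 was the member with the lowest level.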

How the results depend on the processing

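No paired analysis was possible because the replicate numbers in the labels differ between all groups, so no number is shared. The sample code, which groups do share, is not a replicate number and was fitted as a term, with its counts below. The counts of members called moved with the processing, and the cause was not tested. The counts of all genes called moved too. At 300 mg/kg/d against corn oil, 1.88% of all genes were called with no low-count filter and 1.5% with sample code in the fit. With each library left out it was 1.15% to 2.41%, and the other shares are given above. At 300 mg/kg/d against corn oil (2 called) the count was 10 with compared groups only, 7 with DESeq2, 5 with the gene length trend removed, 8 with limma voom, 1 with no low-count filter, 0 with sample code in the fit, 11 without replicates 05 and 18 at 100 mg/kg/d, and 0 to 1 with each library left out. At 100 mg/kg/d against corn oil (3 called) the count was 0 with compared groups only (0.263% of all genes) and 6 with DESeq2 (5.72%). With limma voom it was 15, 3 of them higher (24.8% of all genes). It was 4 with the gene length trend removed (2.39%) and 1 with sample code in the fit (1.05%). With each library left out it was 0 to 15, and the 15 went with 23.2% of all genes. At 300 against 1 and 11 mg/kg/d (5 called) it was 14 with compared groups only, 13 with DESeq2, 8 with the length trend removed, 14 with limma voom, 2 with no low-count filter, 2 with sample code in the fit, 14 without replicates 05 and 18, and 1 to 7 with each library left out. In that comparison 6.64% of all genes were called with compared groups only, 6% with DESeq2 and 7.5% with limma voom. It was 4.19% with the length trend removed, 2.39% with no low-count filter and 2.45% with sample code in the fit. Without replicates 05 and 18 it was 5.89%. With each library left out it was 2.09% to 3.29%. At 300 against 100 mg/kg/d (0 called) the count was 1 with DESeq2 (8.5% of all genes) and 10 with limma voom (36.5%), 2 of them higher. With each library left out it was 0 to 13, and the 13 went with 32.1% of all genes. For the slope (11 called, and 5.72% of all genes) the count was 6 on dose rank (4.35% of all genes) and 4 on linear dose (3.24%). It was 14 with DESeq2 (8.58%), 15 with limma voom (11.3%) and 5 with sample code in the fit (3.25%). It was 9 with no low-count filter (3.44%) and 10 with the length trend removed (6.62%). With each library left out it was 6 to 14, with 4.07% to 8.22% of all genes.

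The median log2 fold change of the members at 100 mg/kg/d was -0.33 without replicates 05 and 18 and -0.27 to -0.12 with each library left out, and at 300 against 100 mg/kg/d it was 0.11 and -0.07 to 0.03. At 11 mg/kg/d the median (-0.056) was -0.051 (without replicate 03) to 0.025 (without replicate 16) with each library left out, and -0.065 to -0.043 in the other alternatives. At 300 mg/kg/d, at 1 mg/kg/d, for the slope and at 300 against 1 and 11 mg/kg/d it was below 0 in every alternative run. Over single called genes, 743 alternative values were computed: 544 kept their call, 199 lost it and 0 changed direction. With 3 libraries in most groups, changes near the median standard error of 0.10 (log2) were not detectable.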
